A study of Mus musculus with 10 samples.

Results

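RNA polymerase III (Pol III) transcribes the short untranslated RNAs of the cell, among them the tRNAs, the 5S ribosomal RNA, the U6 spliceosomal RNA and the 7SK and 7SL RNAs. The enzyme shares a set of small subunits with RNA polymerases I and II and carries further subunits of its own. Its output is tied to growth: the MYC oncoprotein is known to bind the initiation factor TFIIIB and to raise Pol III transcription, and the repressor MAF1 lowers it when nutrients are short. The genes described here are 9 subunits that belong to Pol III alone, Polr3a, Polr3b, Polr3c, Polr3d, Polr3e, Polr3f, Polr3g, Polr3gl and Polr3k, taken by symbol from the 21010 genes of the count table. The set was chosen by the KMS against KM difference of Polr3e in these same libraries, so the values of Polr3e are given as a description and without a test. Crcp, which also belongs to Pol III alone, was not in the chosen set and is described after it with the shared subunits.

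Kidney RNA of 5 KM and 5 KMS mice on the C57BL/6 background, 20 weeks old, was sequenced, 1 library per mouse. The Reporting Summary names male and female mice, without the sex of each. KM mice carry Ksp1.3/cre and, by the sample labels, MYCfl/fl, which the methods write as a Cre-dependent MYC transgene at the Rosa26 locus with 1 wild-type allele. The Cre recombinase runs from the promoter of Cdh16, a cadherin of kidney tubule cells, so MYC is overexpressed in tubules of both groups, and KM kidneys become polycystic. KMS mice carry floxed Setd2 alleles (Setd2fl/fl) in addition, which removes the methyltransferase that places H3K36me3 from the same cells, and the study follows their passage from cysts to clear cell renal carcinoma. The sources differ on the material. Primary epithelial cells of tubules in the cortex are given in the labels, the methods name kidney tissue, and the Reporting Summary names cysts in KM and neoplastic masses in KMS. Tubule genes were detected in all libraries, and the summed level of 5 tubular epithelium markers (Cdh16, Epcam, Pax8, Krt8, Krt18) was 1055 to 1719 CPM (read counts scaled to library size with TMM factors) in KM and 1154 to 1894 in KMS. Cdh16 made up most of this sum, and by the sign of the log2 fold change 3 of the 5 markers were higher and 2 (Epcam, −0.51, and Krt18, −0.87) lower in KMS, none past the threshold used below.

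Total counts were 10873993 to 14564152 in KM and 16925118 to 25029639 in KMS, so KMS was the more deeply counted group in every library. KMS replicate 5 stood apart, with a TMM factor of 0.642 against 0.938 to 1.22 in the other libraries. KM replicates 1 and 2 were the most alike of any pair within a group: the mean squared difference of their counts was 5.79 times that of sampling noise, and at least 49.4 times in the other pairs, so they were kept as 2 samples. The floxed gene itself was no clear check of the labels: Setd2 was at 62.6 to 73.3 CPM in KM and at 89.0, 36.2, 71.1, 60.4 and 28.2 CPM in KMS replicates 1 to 5 (log2 fold change −0.25, adjusted p = 0.658), counted over the whole gene and not over the deleted exons. Mouse Myc ranged from 3.97 to 8.49 CPM in KM and from 2.75 to 14.4 CPM in KMS (0.36, adjusted p = 0.698), and no source used here says whether reads of the transgene are counted there. In edgeR's quasi-likelihood test, 16 of 15728 tested genes passed an FDR of 0.05 with a fold change past 1.5 in either direction, 4 higher and 12 lower in KMS. DESeq2 called 1072 genes at the same thresholds, 255 higher and 817 lower. No marker list held a gene past the threshold in edgeR, but in several lists nearly all genes were lower in KMS by the sign of the log2 fold change. Lower genes with an unadjusted p under 0.05 in edgeR numbered 6 of 6 for dividing cells and 4 of 6 for T and NK cells. They numbered 4 of 6 for fibroblasts and 3 of 5 for macrophages, against 19.5% of all tested genes. No tubular epithelium, proximal tubule or endothelium gene had such a p. In DESeq2, adjusted p was 5.0e-06 for fibroblast Col1a1, 9.1e-05 for T cell Cd8a, 0.0011 for dividing-cell Mki67 and 0.0030 for macrophage Csf1r. Others were above 0.05, such as Gzma (0.946). Summed CPM was 45.4 to 127 in KM and 10.8 to 46.2 in KMS for 6 genes of dividing cells, 17.3 to 34.8 and 1.26 to 10.3 for 6 genes of T and NK cells, 244 to 545 and 127 to 189 for 6 fibroblast genes, and 210 to 689 and 91.4 to 319 for 5 macrophage genes, so that the ranges of dividing cells and macrophages overlapped. Every gene of these lists had a negative log2 fold change, as had 5 of 6 collecting duct genes, 3 of them with an unadjusted p under 0.05 (Slc4a1, Foxi1 and Atp6v1g3), whose summed CPM was 293 to 856 in KM and 246 to 664 in KMS. The part of this in any difference below was not tested. In RNA of mixed cells a change in the number of cells of a type cannot be told apart from a change in RNA per cell. If the material was cysts in KM and neoplastic masses in KMS, as the Reporting Summary has it, it also differed with the group.

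The Polr3e promoter region is printed because it holds features that few promoter regions hold. The window covers 250 bases before and 50 bases after the RefSeq start of the gene, on the plus strand of GRCm38.p6 at chr7:120917528-120917827, and is written 5′ to 3′ from RefSeq. Capitals mark a match to GGTTCGA, the core of the B box of tRNA genes to which TFIIIC binds, and the MYC-type E-box CACGTG.
Polr3e promoter: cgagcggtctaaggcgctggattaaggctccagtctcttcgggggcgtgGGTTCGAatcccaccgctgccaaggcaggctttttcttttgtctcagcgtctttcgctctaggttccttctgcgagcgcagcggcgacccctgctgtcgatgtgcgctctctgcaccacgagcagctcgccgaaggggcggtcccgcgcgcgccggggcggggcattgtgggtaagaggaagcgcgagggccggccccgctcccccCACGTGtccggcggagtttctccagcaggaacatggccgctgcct
Bases 1 to 71 of this window belong to a leucine tRNA gene, n-TLaag4, which lies at chr7:120917517-120917598 and ends 179 bases before the Polr3e start. The gene of a Pol III subunit is therefore preceded, within its own promoter window, by a gene that Pol III transcribes. Of 21262 RefSeq promoter windows of protein-coding genes of this length, 5 (0.0235%) overlapped a RefSeq tRNA gene and 218 (1.03%) held the B box letters on either strand. The E-box, which reads the same on both strands, was in 1666 windows (7.84%). Promoter windows were at hand for 7 of the 9 subunits. The E-box letters were found in 3 of these, of Polr3c, Polr3e and Polr3gl, and the B box and the tRNA gene in that of Polr3e alone. The B box match starts at base 50 and lies within the bases of n-TLaag4, so the B box and the tRNA gene are not independent features. The E-box starts at base 256, which is 5 bases after the Polr3e start. The B box and E-box matches do not overlap, and a match of letters is no evidence of binding.

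Polr3e encodes a subunit that forms, with that of Polr3d, a subcomplex near the active site known for its role in initiation and termination. It was counted at 48.6, 46.3, 53.2, 44.0 and 51.2 CPM in KM replicates 1 to 5 and at 137, 106, 103, 120.1 and 135 CPM in KMS replicates 1 to 5. Every KMS library lay above every KM library. The means were 48.6 ± 3.69 (SD, n = 5) and 120.1 ± 15.9 CPM (SD, n = 5), a ratio of 2.47 and a fitted log2 fold change of 1.30 (SE 0.167). These rest on 612 to 899 reads per KM library and 1736 to 2924 per KMS library.

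Of the 9 subunits, Polr3e alone passed the threshold and alone had groups that did not overlap. Among all tested genes 0.102% passed that threshold, and 4.79% had groups that did not overlap. Since this contrast chose the gene, nothing is read from the count. The call itself was lost when KM replicate 1, 2 or 5 was left out, and with the level of Y-linked genes as a covariate, while the log2 fold change stayed between 1.15 and 1.37 in these and all other fits. Male and female mice were used by the Reporting Summary, but the sex of each was not recorded. Libraries with a mean log2 CPM of Y-linked genes above 0 made up 4 of 5 KM and 2 of 5 KMS libraries. That level was graded. It was 6.74, 6.68, 4.08 and 5.41 in KM replicates 1, 2, 3 and 5, and 4.96 and 2.34 in KMS replicates 4 and 5. Among libraries with that level above 0 on the log2 CPM scale, Polr3e was at 46.3 to 53.2 CPM in 4 KM and 120.1 to 135 CPM in 2 KMS libraries. Among the rest it was at 44.0 CPM in the single KM library and at 103 to 137 CPM in 3 KMS libraries. The order within both sets follows from that of all libraries, so nothing on sex is read from this split.

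**Figure D1:**
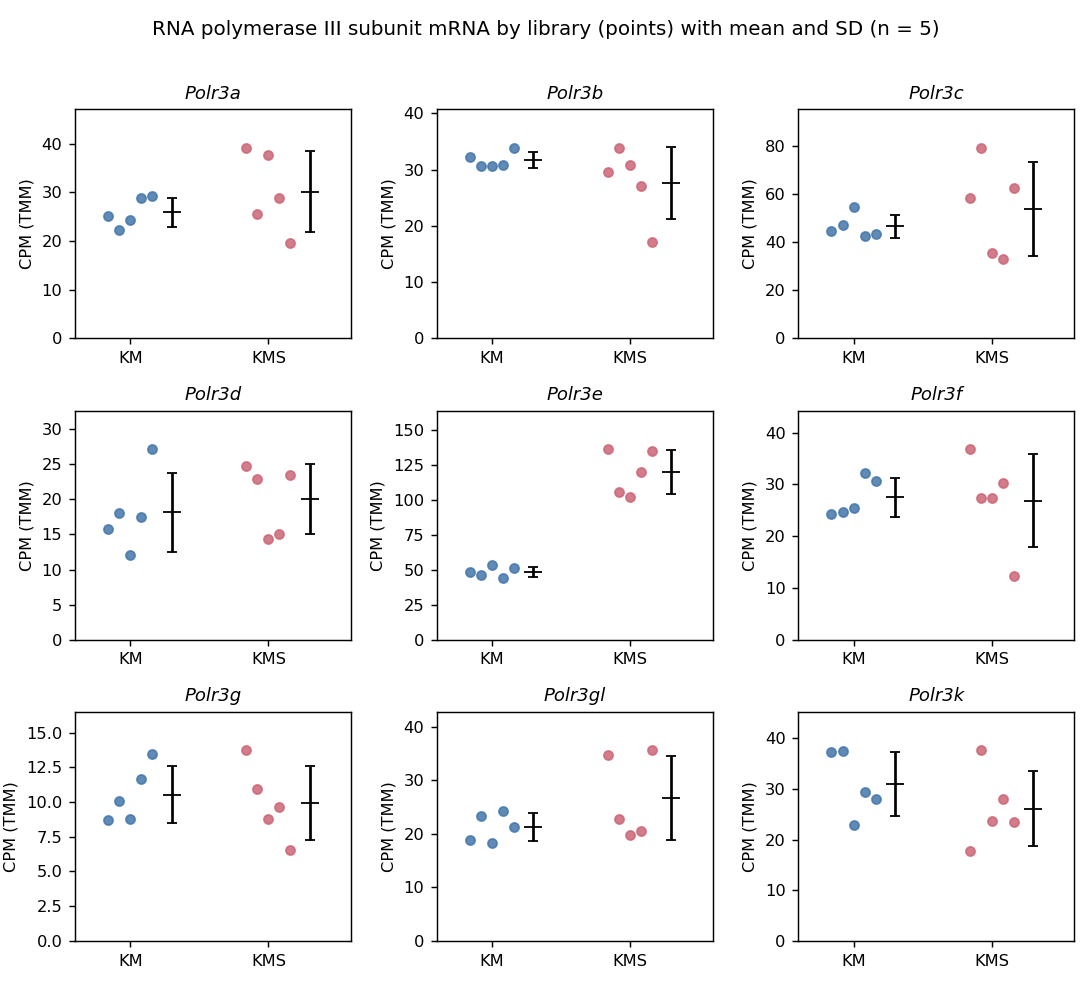
Levels of the 9 Pol III subunit mRNAs (vertical axes, CPM scaled with TMM factors, starting at 0) in 5 KM (blue) and 5 KMS (red) libraries, in the order of replicates 1 to 5 from left to right, with the mean and SD in black. Polr3e runs from 44.0 to 53.2 CPM in KM and from 103 to 137 CPM in KMS, while the groups of each other subunit overlap.

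The other 8 subunits showed no difference past the threshold. Their log2 fold changes ran from −0.25 to 0.33, 4 above and 4 below 0, with a median of 0.06, which is also the median of all tested genes. Adjusted p-values of edgeR's quasi-likelihood test ran from 0.447 to 0.958. The 95% intervals of the 8 log2 fold changes reached from −0.77 at the lowest to 0.83 at the highest, so moderate changes in either direction remain possible for single genes, but a rise of the size of Polr3e lies outside every one of them.

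The catalytic core is formed by the products of Polr3a and Polr3b, the largest and the next largest subunit. Polr3a was at 25.1, 22.2, 24.3, 28.7 and 29.2 CPM in KM replicates 1 to 5 and at 39.2, 25.5, 37.6, 28.8 and 19.6 CPM in KMS replicates 1 to 5. Polr3b was at 32.3, 30.7, 30.6, 30.8 and 33.9 CPM in KM and at 29.5, 33.9, 30.8, 27.0 and 17.1 CPM in KMS. KMS replicate 5 was the lowest of all 10 libraries for both genes, and KM libraries were the more alike. The log2 fold change was 0.22 for Polr3a (SE 0.222, 95% interval −0.27 to 0.70, adjusted p = 0.621) and −0.19 for Polr3b (SE 0.204, interval −0.64 to 0.25, adjusted p = 0.631).

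Polr3d, whose product is the direct partner of the Polr3e protein, had groups that overlapped. It was at 15.8, 18.0, 12.1, 17.5 and 27.2 CPM in KM and at 24.7, 22.9, 14.4, 15.0 and 23.5 CPM in KMS, and the highest single value was in KM. The mean was 18.1 ± 5.57 CPM in KM (SD, n = 5) and 20.1 ± 4.99 CPM in KMS (SD, n = 5), and the log2 fold change was 0.15 (SE 0.267, interval −0.44 to 0.73, adjusted p = 0.797). Polr3k, whose product has the RNA cleavage activity of the enzyme, was at 37.2, 37.6, 22.9, 29.4 and 27.9 CPM in KM and at 17.8, 37.7, 23.7, 27.9 and 23.6 CPM in KMS. Its log2 fold change was −0.25 (SE 0.239, interval −0.77 to 0.28, adjusted p = 0.600), the lowest of the 9.

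Polr3c, Polr3f and either Polr3g or its paralog Polr3gl supply the heterotrimer that opens the promoter and contacts TFIIIB. Polr3c was at 44.8, 47.0, 54.7, 42.8 and 43.5 CPM in KM and at 58.5, 79.4, 35.6, 33.0 and 62.5 CPM in KMS. KMS libraries thus fell on both sides of the KM range, 3 above it and 2 below it, and the SD was 19.5 CPM in KMS against 4.84 CPM in KM (log2 fold change 0.21, SE 0.250, interval −0.34 to 0.75, adjusted p = 0.678). Polr3f was at 24.3, 24.7, 25.5, 32.3 and 30.7 CPM in KM and at 36.9, 27.3, 27.5, 30.3 and 12.3 CPM in KMS. Its lowest value, in KMS replicate 5, was under the whole KM range. The sign of its log2 fold change (−0.03, SE 0.267, interval −0.62 to 0.55, adjusted p = 0.958) turned when that library was left out (0.18). It also turned without KM replicate 4 (0.036) and without KM replicate 5 (0.027).

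Polr3g and Polr3gl encode alternative forms of 1 subunit; Polr3g is known from stem cells and tumour cells, and Polr3gl from differentiated tissues. Polr3g was the least counted of the 9, at 8.71, 10.1, 8.76, 11.7 and 13.5 CPM in KM and 13.7, 10.9, 8.80, 9.62 and 6.54 CPM in KMS (log2 fold change −0.09, SE 0.264, interval −0.66 to 0.49, adjusted p = 0.890). Polr3gl was at 18.8, 23.4, 18.4, 24.3 and 21.3 CPM in KM and at 34.7, 22.9, 19.7, 20.5 and 35.6 CPM in KMS (0.33, SE 0.231, interval −0.17 to 0.83, adjusted p = 0.447). In KMS replicates 1 and 5 Polr3gl lay above every KM library, and in the other KMS libraries it lay within the KM range.

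Polr3gl had more reads than Polr3g in all 10 libraries. The log2 ratio of Polr3g to Polr3gl counts, with 3 added to each, was −1.09, −1.20, −1.05, −1.05 and −0.65 in KM replicates 1 to 5 and −1.33, −1.06, −1.15, −1.08 and −2.41 in KMS replicates 1 to 5. KMS replicate 5 was far below the rest, and the groups overlapped. The means were −1.01 ± 0.210 and −1.40 ± 0.574 (SD, n = 5 each), and the difference of −0.40 had a two-sided p = 0.159 in an exact permutation test, whose smallest possible p is 0.00794. Without KMS replicate 5 the difference was −0.15. These are ratios of read counts and not of molecules, as they are not scaled to the lengths of the transcripts.

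Polr3e was also set against the other subunits within each library. The log2 ratio of its counts to the mean of the other 8 was 1.05, 0.92, 1.30, 0.78 and 0.91 in KM replicates 1 to 5 and 2.22, 1.90, 2.17, 2.41 and 2.70 in KMS replicates 1 to 5. The lowest KMS ratio was above the highest KM ratio. The means were 0.99 ± 0.196 and 2.28 ± 0.295 (SD, n = 5 each), and the difference of 1.29 was 1.32 without Polr3g and Polr3gl. As the rule used the contrast on Polr3e, no test was made on this ratio.

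**Figure D2:**
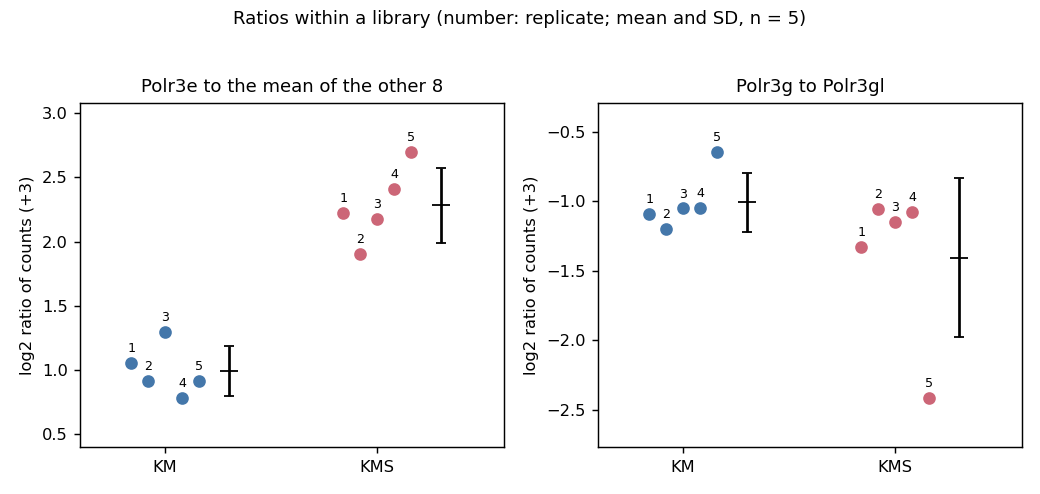
Log2 ratios of read counts within each library (vertical axes, 3 added to each count) for Polr3e against the mean of the other 8 subunits (left) and for Polr3g against Polr3gl (right), with the replicate number at each point and the mean and SD in black. The ratio of Polr3e lies between 0.78 and 1.30 in KM and between 1.90 and 2.70 in KMS, and the ratio of Polr3g to Polr3gl in KMS replicate 5 is −2.41.

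Per length the order of the subunits changed at the top. In CPM per kb of annotated exon, means in KM ran from Polr3c (13.7) and Polr3gl (13.3) through Polr3k (9.92), Polr3e (9.68), Polr3d (6.35), Polr3b (6.02), Polr3a (4.45) and Polr3f (3.56) to Polr3g (2.68). Only Polr3b and Polr3a were neighbours in this order whose libraries did not overlap. In KMS the mean of Polr3e was the highest at 23.9 CPM per kb, ahead of Polr3gl at 16.7 and Polr3c at 15.9, and the other 6 came in the same order as in KM from Polr3k (8.37) through Polr3d (7.04), Polr3b (5.26), Polr3a (5.17) and Polr3f (3.48) to Polr3g (2.52). The libraries of every 2 neighbours in the KMS order overlapped, Polr3e and Polr3gl included. Exon lengths are those of the GENCODE annotation and count all isoforms together.

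The 9 genes lie on 6 chromosomes of GRCm38.p6, so a common location is shared only in pairs. Polr3a spans chr14:24448694-24487070 and Polr3d chr14:70438748-70443471. Polr3c spans chr3:96711520-96727498 and Polr3gl chr3:96577872-96594181. Polr3f spans chr2:144527745-144541779, Polr3k chr2:181864360-181870830, Polr3b chr10:84622292-84727178, Polr3g chr13:81673837-81711013 and Polr3e chr7:120917778-120947435. No transcript of another gene matched a subunit at 90% identity or more over at least 300 bases. Exons overlapped those of another annotated gene over 247 bases in Polr3b (Gm17249, antisense) and over 57 bases in Polr3gl (Gm16253, opposite strand), and with a counting of unknown strand setting, reads there cannot be assigned with certainty.

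The genes around Polr3e on chromosome 7 were compared next. Cdr2, a cytoplasmic protein known as an antigen in paraneoplastic cerebellar degeneration, lies on the opposite strand, its nearer end 9600 bases after the end of Polr3e. It was at 35.6, 31.2, 58.3, 42.0 and 39.2 CPM in KM and at 218, 54.5, 74.9, 113 and 109 CPM in KMS replicates 1 to 5. All KMS values but that of replicate 2 were above the KM range. The log2 fold change was 1.46 (SE 0.348), with an unadjusted p of 0.00127 and an adjusted p of 0.125 in edgeR's quasi-likelihood test, and it was 1.09 without KMS replicate 1. DESeq2 gave an adjusted p of 0.00821, in a fit that called 5.1% of all genes against the 0.102% of the edgeR test.

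The other neighbours did not pass either. Eef2k, the kinase of elongation factor eEF2, ends 10558 bases before the Polr3e start and averaged 19.5 ± 3.82 CPM in KM against 14.0 ± 6.80 CPM in KMS (SD, n = 5 each; log2 fold change −0.47, adjusted p = 0.467). Uqcrc2, a subunit of respiratory complex III, lies 258254 bases before Polr3e and was at 397 ± 83.9 and 554 ± 35.0 CPM (0.48, adjusted p = 0.265). The groups of Uqcrc2 did not overlap, as did those of 4.79% of all tested genes. The gap was narrow, from 502.5 CPM in KM replicate 3 to 503.7 CPM in KMS replicate 1. Gm9234, a pseudogene 67493 bases after Polr3e whose reads may come from its parent gene, had a log2 fold change of 1.31 (adjusted p = 0.355) that was 0.41 without KMS replicate 5. Values of both signs thus stood within 500 kb of Polr3e.

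**Figure D3:**
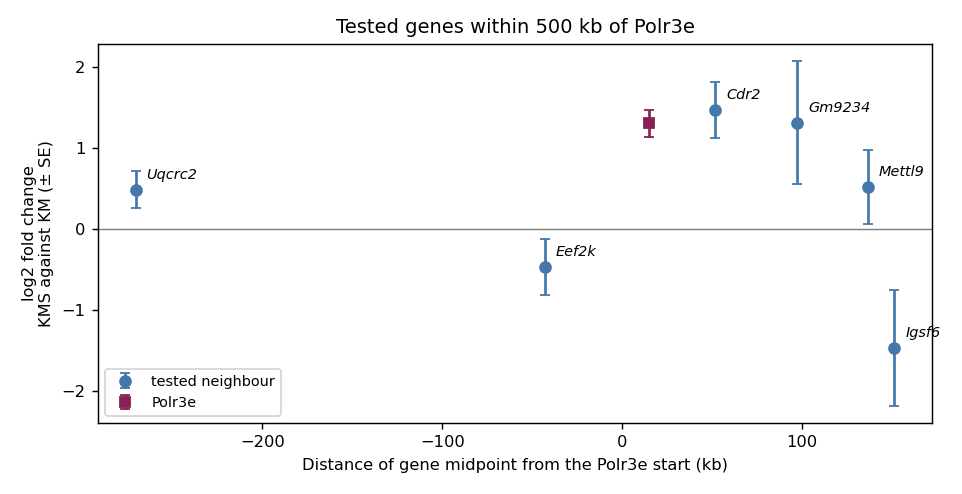
Log2 fold change of KMS against KM (vertical axis, bars show the standard error) by the distance of a gene's midpoint from the Polr3e start in kb (horizontal axis), for 6 tested neighbours (circles) and Polr3e (square). Cdr2 (1.46) lies beside Polr3e (1.30), while Eef2k on the other side is at −0.47.

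The genes whose pattern over the 10 libraries was most like that of Polr3e came from elsewhere in the genome. Likeness was the root mean square difference of centred log2 CPM over 10 libraries, ranked over 13291 genes. The nearest were Mob2, a regulator of NDR kinases on chromosome 7 (0.23), Prodh, the proline dehydrogenase of mitochondria (0.27), Ggact, a gamma-glutamylamine cyclotransferase (0.30), C130074G19Rik (0.31) and Phyh, the phytanoyl-CoA hydroxylase of peroxisomes (0.31). Mob2 averaged 23.9 ± 2.24 CPM in KM against 52.1 ± 16.1 CPM in KMS, and Prodh 144 ± 29.3 and 388 ± 93.9 CPM (SD, n = 5 each). The other 8 subunits were farther from Polr3e, at 0.56 for Polr3gl to 0.88 for Polr3k. Likeness to a gene chosen for its group difference picks genes with a group difference, and no test is drawn from it.

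The 8 subunits listed beside the chosen set had positive log2 fold changes, but 1 library carried much of it. They are Crcp, a subunit of the stalk of Pol III, Polr1c and Polr1d, shared with Pol I, and Polr2e, Polr2f, Polr2h, Polr2k and Polr2l, shared by all 3 nuclear polymerases. None of the 8 passed the threshold, 5 had an unadjusted p under 0.05, against 19.5% of all tested genes, and the median log2 fold change was 0.85. Polr2l was at 28.2 to 35.9 CPM in KM and at 23.3, 26.8, 29.4, 37.9 and 461 CPM in KMS replicates 1 to 5. KMS replicate 5 was far above every other library. Polr2l and Crcp were named after their values had been seen.

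Without KMS replicate 5, 6 of these 8 were positive, 1 had an unadjusted p under 0.05 and the median was 0.39, against 0.05 for all genes in that fit. Polr2e and Polr1c, the most highly expressed, had log2 fold changes of 0.98 (adjusted p = 0.239) and 0.96 (adjusted p = 0.259) in all libraries and 0.39 and 0.35 without it. Crcp was the exception among the 8, with 16.6 to 22.0 CPM in KM, 21.4 to 33.1 CPM in KMS and a log2 fold change of 0.48 (adjusted p = 0.220) that was also 0.48 without that library. The 6 Pol I subunits tested had a median of 0.00, with 3 above and 3 below 0, and the 8 Pol II subunits a median of 0.56, 0.33 without KMS replicate 5. Polr3e kept a log2 fold change of 1.29 without KMS replicate 5.

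**Figure D4:**
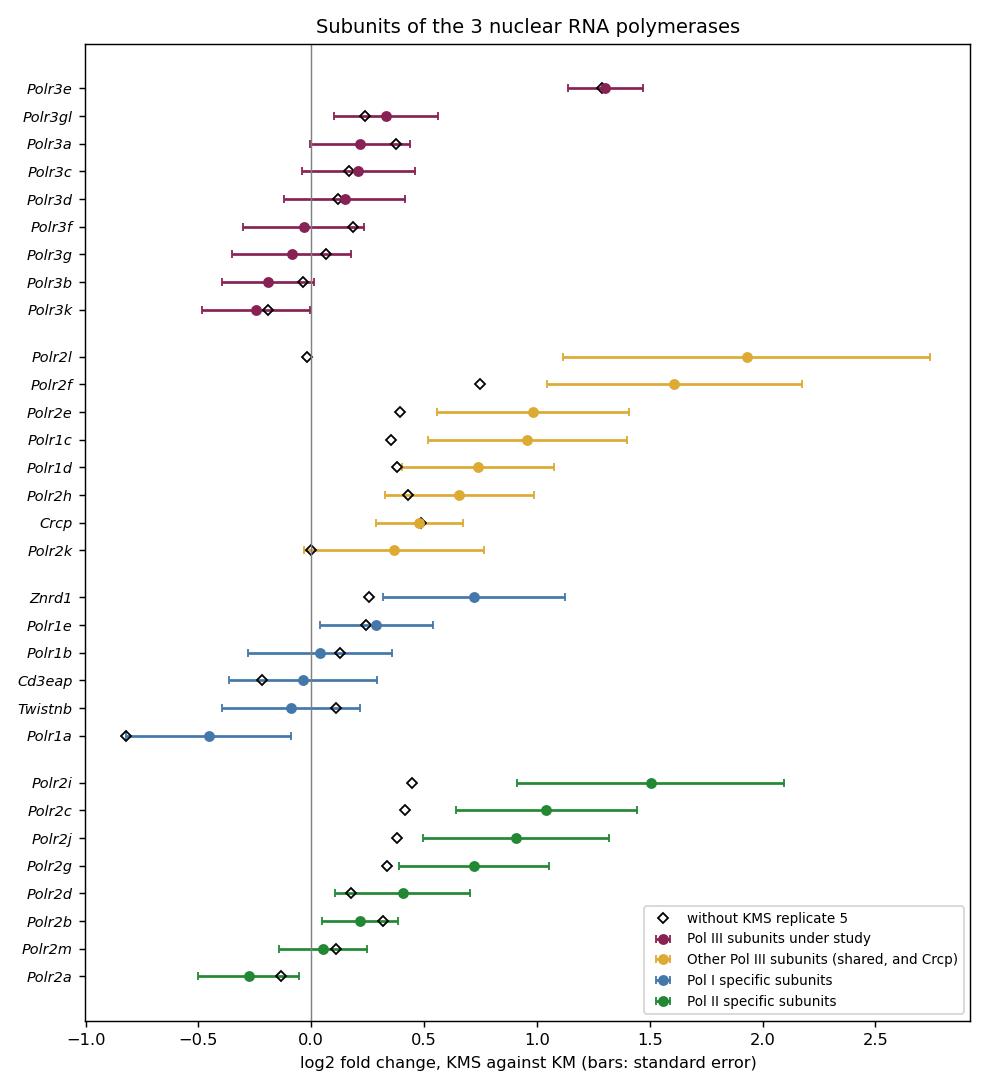
Log2 fold change of KMS against KM (horizontal axis, bars show the standard error) for the 9 Pol III subunits, the 8 other Pol III subunits, 6 Pol I and 8 Pol II subunits, with open diamonds for the value without KMS replicate 5. Polr3e at 1.30 moves little when that library is left out, while Polr2l falls from 1.93 to −0.02.

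In the wider Pol III pathway, 80 of 84 genes were tested and none passed the threshold of edgeR's quasi-likelihood test. 11 genes, all higher in KMS, had an unadjusted p under 0.05, which is 13.8% against 19.5% of all tested genes, and the groups of 2 genes (2.5%) did not overlap, against 4.79%. DESeq2, in a fit that called 5.1% of all genes, called 2 of the pathway genes, Maf1 and Pop5. Log2 fold changes were positive for 55 and negative for 25 genes, that is for 68.8% against 54.0% of all tested genes, with a median of 0.19 against 0.06 for all genes. Without KMS replicate 5 the median was 0.18, against 0.05 for all genes in that fit. In the same fit 7 of 79 genes had an unadjusted p under 0.05 in edgeR, a count for which no share of all genes is at hand.

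No initiation factor passed the threshold. Among the 4 genes of TFIIIB, which recruits Pol III, the median was 0.31, with Brf1 at 0.19 (adjusted p = 0.641) and Bdp1 at −0.08 (adjusted p = 0.922). The 7 genes of TFIIIC and TFIIIA, which read the internal promoters of tRNA and 5S genes, had a median of −0.03, with Gtf3c1 at −0.03 (adjusted p = 0.952) and Gtf3c2 at 0.09 (adjusted p = 0.839). The 7 genes of SNAPc and the other factors of the U6 promoter had a median of 0.13, with Snapc5 at 0.54 (adjusted p = 0.401) and Pou2f1 at 0.13 (adjusted p = 0.865).

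Among 8 regulators the median was −0.06. Ssb, the La protein that binds the ends of new Pol III transcripts, was at −0.06 (adjusted p = 0.919). Maf1 was at 84.7, 87.9, 92.3, 63.2 and 58.5 CPM in KM and at 191, 175, 82.6, 92.7 and 463 CPM in KMS replicates 1 to 5. KMS replicate 3 was within the KM range and replicate 5 far above every library. Its log2 fold change of 1.38 (SE 0.432) had an adjusted p of 0.172 in edgeR's quasi-likelihood test and 0.0462 in DESeq2, and it was 0.83 without KMS replicate 5.

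Of 19 genes that process or export tRNA, 17 had a positive log2 fold change, where 54.0% of all tested genes did, with a median of 0.26. An unadjusted p under 0.05 was found in 4 of the 19, a share close to the 19.5% of all tested genes. Rtcb, the tRNA ligase, was at 0.46 (adjusted p = 0.317) and Xpot, the tRNA exporter, at −0.09 (adjusted p = 0.826). Pop5 and Pop4, subunits of RNase P and of RNase MRP, were the 2 genes without overlap and were also named after their values had been seen. Pop5 was at 18.6 to 40.5 CPM in KM and at 72.1, 70.1, 44.1, 52.3 and 249 CPM in KMS (log2 fold change 1.68, SE 0.468, adjusted p = 0.152 in edgeR and 0.0176 in DESeq2), and at 0.99 without KMS replicate 5. Pop4 ranged from 17.9 to 22.2 CPM in KM and from 22.4 to 32.4 CPM in KMS (0.47, adjusted p = 0.220).

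The 19 cytosolic tRNA synthetases, which charge the tRNAs with amino acids, had 13 positive log2 fold changes, a median of 0.11 and none with an unadjusted p under 0.05. Sars was at 0.58 (adjusted p = 0.259) and Qars at 0.54 (adjusted p = 0.319). The 5 genes of the pathway in which Pol III copies foreign DNA into RNA for RIG-I had a median of 0.15, with Trim25 at 0.05 (adjusted p = 0.921) and Mavs at 0.15 (adjusted p = 0.723). Products of Pol III were counted only at low levels, in libraries made from polyadenylated RNA, from which most of them are absent. The 3 that were tested, Rn7sk, Rn7s2 and Rpph1, had negative log2 fold changes, and Rn7sk was at 3.50, 1.82, 2.07, 9.42 and 25.2 CPM in KM and at 5.56, 3.23, 0.12, 0.33 and 0.87 CPM in KMS, with an adjusted p of 0.280. These counts are no measure of Pol III output, and tRNAs were not analysed here.

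**Figure D5:**
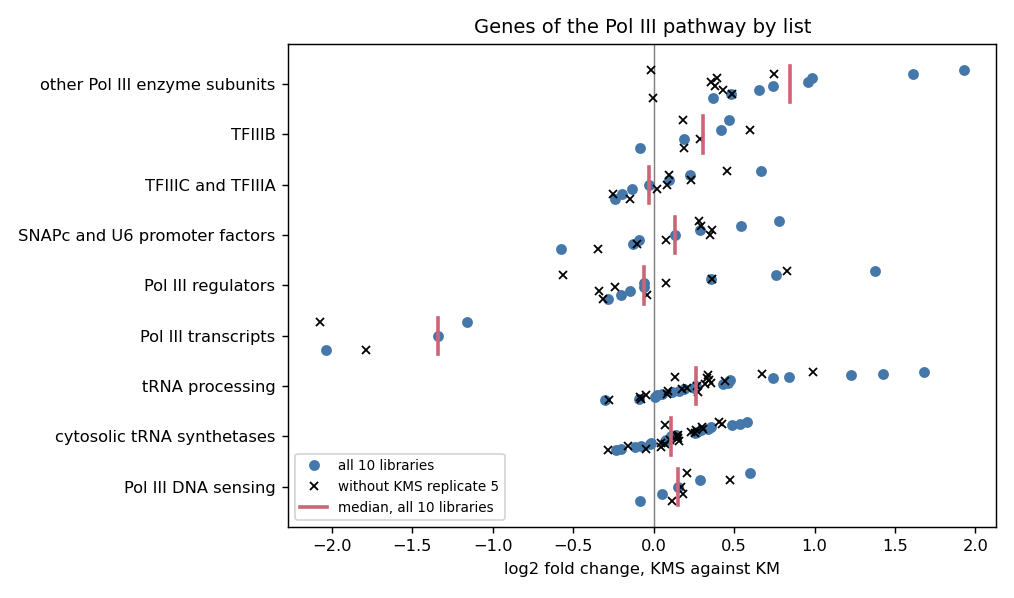
Log2 fold change of KMS against KM (horizontal axis) for 80 tested genes of the Pol III pathway in 9 lists, with all 10 libraries (circles), without KMS replicate 5 (crosses) and the median of each list (red line). Medians lie between −1.34 for the Pol III transcripts and 0.85 for the other enzyme subunits, and none of the genes passed the threshold.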

How the data were processed

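The deposited counts are whole reads per gene in each library, without normalization. Per the methods, directional libraries of polyadenylated RNA were sequenced as 150-base read pairs, aligned to GRCm38 with HISAT2 2.2.1 and counted with HTSeq, with a strand setting that the sources used here do not give. The log2 fold changes and the p-values deposited by the authors were not used. Each count column matched 1 library, and total counts of 10873993 to 25029639 make low genes less precise in KM.

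The 9 subunits, the gene lists and the tests were chosen with earlier results of these data known. KMS was compared with KM in R 4.3.3 with edgeR 4.0.16 (TMM factors, filterByExpr, quasi-likelihood test, no covariate, Benjamini-Hochberg adjustment over 15728 genes), tested on simulated data first. Calls needed an FDR under 0.05 together with a change past 1.5-fold in either direction. The methods name RUVSeq without a variant, so 1 RUVg factor was an alternative, beside DESeq2 1.42.0, limma-voom (limma 3.58.1), the likelihood ratio test, other scalings, no filter, thinning, the Y-linked level and the replicate number as terms, and each library left out. CPM uses TMM factors, and log2 CPM a prior count of 3. Besides the subunits, genes were named by rule: called genes of a pathway list or, with none, its 2 most expressed genes, the 5 genes most like Polr3e among genes whose mean log2 CPM reached 1, and the 2 nearest tested genes on each side of it. Positions are those of RefSeq on GRCm38.p6, and copies were sought with BLAST+ 2.17.0 in GENCODE vM21 transcripts. Some results that fall under these lists are not reported here.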

Additional observations from a re-analysis of the deposited data

Results flagged for a closer look

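Of 30 sets of 5 values checked for a single library far from the other 4, 3 were marked, and chance marks about 1 set in 20. The sets did not take in every gene described above. Polr2l was not among them, at 461 CPM in KMS replicate 5 with the nearest KMS library at 37.9 CPM. The log2 ratio of Polr3g to Polr3gl was −2.41 in KMS replicate 5, with the nearest KMS library at −1.33. The same ratio was −0.65 in KM replicate 5, with the nearest KM library at −1.05. Gm9234, the pseudogene downstream of Polr3e, was at 15.1 CPM in KMS replicate 5, with the nearest KMS library at 4.78 CPM.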

How the results depend on the processing

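Polr3e had a log2 fold change between 1.15 and 1.37 under all 20 alternatives, which is within the pooled SD of 0.156 between libraries. The number of the 9 subunits called was 1 in 15 of 20 alternatives. It was 0 with the Y-linked level as a covariate and 0 with the replicate block, a fit that called 2 genes in all, and it ran from 0 to 1 when single libraries were left out (0 without KM replicate 1, 2 or 5). Deviations from the group means of same-numbered libraries correlated at −0.34, 0.14, −0.28, 0.12 and −0.44, so the numbers do not pair the libraries. Pathway genes called higher numbered 2 with DESeq2, 1 with the likelihood ratio test and 2 with 1 RUVg factor, against 0, while these fits called 1072, 602 and 507 genes in all against 16. Signs turned only for log2 fold changes near 0. Polr3d was at −0.016 with upper quartile factors, which moved the median of all genes from 0.06 to −0.09. With 1 RUVg factor Polr3f was at 0.059 and Polr3g at 0.0087, and over the fits without single libraries they ran from −0.17 to 0.18 and from −0.23 to 0.066. Polr3a, Polr3b, Polr3c, Polr3gl and Polr3k kept their direction under all 20 alternatives. The difference in the ratio of Polr3g to Polr3gl ran from −0.48 to −0.15.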
